A study of Danio rerio with 32 samples.

Results

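Oxidative phosphorylation, the pathway by which mitochondria make most of their ATP, passes electrons along complexes I to IV of the respiratory chain and uses the resulting proton gradient to drive ATP synthase, complex V. Each complex is built from many subunits, most of them encoded in the nucleus, and assembly factors insert metal centres and modify subunits without remaining in the finished complex. The liver relies on this machinery for the oxidation of fatty acids and for gluconeogenesis. Member transcripts were taken by gene symbol, namely those that start with nduf, uqcr or atp5, or with cox followed by a digit. The rule reads symbols and no measured value.

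In all, 89 probes of 73 genes met the rule, of 43603 probes on the array. Another 36 gene symbols that met it had no matched probe. The members comprised 38 probes for complex I (31 genes), 7 for complex III (6 genes), 12 for complex IV (11 genes) and 16 for complex V (11 genes). A further 2 probes measured atp5if1a and atp5if1b, the inhibitors that block ATP hydrolysis by ATP synthase. The NDUFA4 family, named for complex I but a part of complex IV in mammals, had 3 probes, and assembly factors had 11 probes of 10 genes.

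Transcripts were measured in livers of adult male zebrafish of the Tübingen strain, aged 6 to 9 months as labelled, with each array carrying RNA pooled from several fish of a single group. In the first experiment fish were kept for 24 h in water with dichlorvos (DDVP), an organophosphate that inhibits cholinesterase, at 6 (low), 19 (mid) or 32 mg/L (high) as labelled, with 4 arrays each, beside 8 arrays of unexposed controls in 2 sets. In the second, 4 arrays each came from fed fish, from fish labelled as 24 h without food and from fish labelled as 50 h without food, none of them given DDVP; the shorter fast ran somewhat over its label according to the methods. The labelled DDVP concentrations are the targets, and by the methods the measured mid and high concentrations were slightly lower. No source used here states separate tanks for the pools, so the p-values measure only the spread between pools. In pooled tissue, fewer cells of a type and less RNA per cell cannot be told apart.

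The deposited log2 table holds values of the 20 DDVP arrays for 12.6% of the 43603 probes. Their number matches that of the genes passing a false discovery rate in the authors' joint comparison of these and the nutrient restriction arrays. That they are the same selection is inferred. The table held 24 member probes of 22 genes (27.0% of the members), and DDVP values of the remaining 65 member probes were not analysed here. The array signal of most members was bright, and among probes that passed the filter on signal to noise in the nutrient restriction arrays the shares were 27.1% of member probes and 32.4% of all probes. Of 38 complex I probes 6 were in the table, against 7 of 12 for complex IV, 5 of 11 for assembly factors, 2 of 7 for complex III and 2 of 16 for complex V. Both inhibitor probes were in the table and none of the NDUFA4 family were. Presence in the table is taken to have required a change in that joint comparison, which used these arrays. Counts of changed members are therefore set beside the same count over the table and carry no weight of their own. The means of both control sets were also equal in every probe of the table, to within 1e-04, so the standard errors and adjusted p-values with 8 controls are too small. In the same table, the means of the 24 h unfed group equalled those of control set 1, again to within 1e-04.

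The question of the DDVP experiment was which transcripts change with concentration. A probe was called at an adjusted p of at most 0.001 (limma, Benjamini-Hochberg over all probes of the table) together with a change of at least 1.8-fold. At the high concentration 9 of the 24 member probes were called, 8 higher and 1 lower, while 74.6% of the table was called (39.4% higher and 35.1% lower). At the mid concentration 5 were called, 4 higher and 1 lower (62.6% of the table, 31.9% higher and 30.7% lower), and at the low concentration none was (30.7% of the table). The count of 0 at low stood without variance moderation as well, and 15 of 24 had an unadjusted p under 0.05 (74.4% of the table). The members changed by less than the table as a whole did. Their median size of change at high was 0.73 on the log2 scale, against 1.25 over all probes of the table. These members were also brighter, with a median control mean of 13.09 against 9.67 over the table, and sizes were not compared at matched brightness. With the adjusted p alone and no fold filter, 22 of 24 members passed at high (90.9% of the table), 17 at mid (85.7%) and 3 at low (47.7%).

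The direction was not the same in every complex. At high, 6 of 7 complex IV probes, both complex III probes in the table and both inhibitor probes were higher than the controls. In contrast, 5 of 6 complex I probes and both complex V probes in the table were lower. The complex IV probes covered 6 genes and those of complex I 5, as cox7a2a and ndufa5 had 2 probes each. Of all probes in the table, 56.0% were higher. The sign was the same at all 3 concentrations for 21 of 24 probes, and 22 of 24 had a larger change at high than at low. These counts were not taken over the whole table, where the median size of change was 0.59 at low and 1.25 at high. All 3 comparisons used the same 8 controls, so agreement of sign is partly built in, and neither count carries weight of its own. At high the 4 arrays lay wholly above the 8 controls in 14 member probes and wholly below them in 7 (49.5% and 39.9% of the table).

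**Figure D1:**
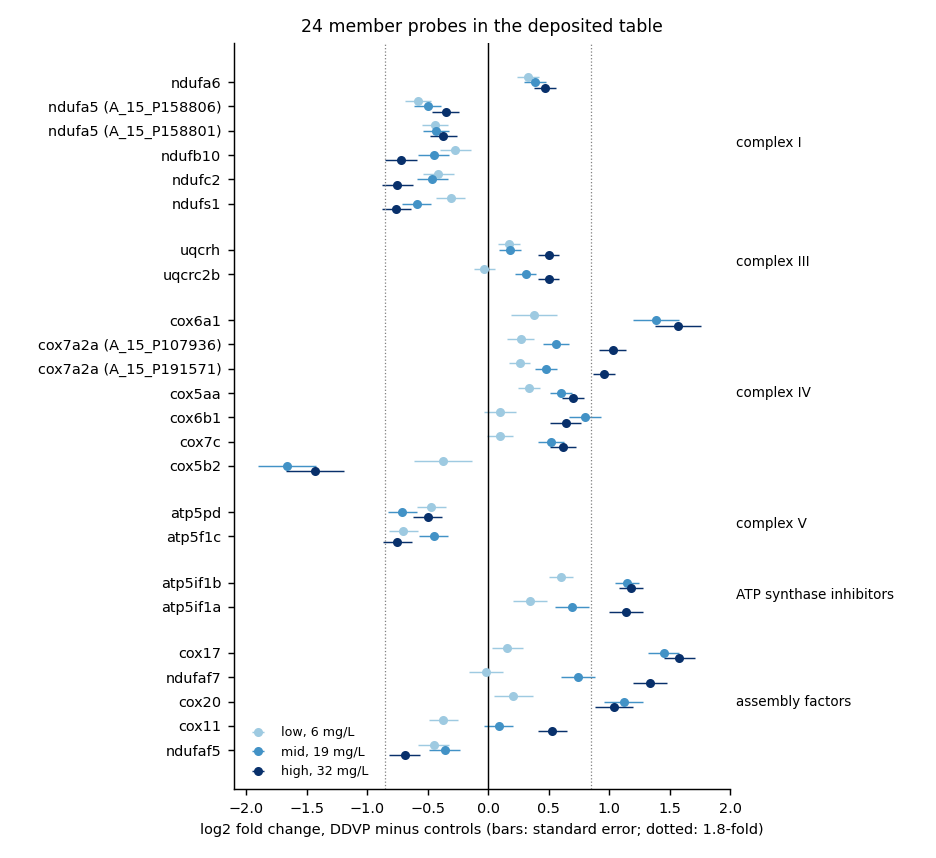
Log2 fold change of each of the 24 member probes in the deposited table against the 8 controls, at the low, mid and high DDVP concentration, with standard errors and grouped by complex; dotted lines mark 1.8-fold. Complex IV lies mostly to the right of 0 with cox5b2 far to the left at -1.43 (high), and complex I lies to the left apart from ndufa6 at 0.47.

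In complex IV, cytochrome c oxidase, the probe with the largest rise was that of cox6a1, a nuclear-encoded subunit. The log2 values of cox6a1 ran from 10.88 through a median of 11.3 to 12.37 in the controls. They were 11.72, 11.78, 11.79 and 11.82 at low, 12.57, 12.65, 12.82 and 13.11 at mid, and 12.9, 12.94, 13.0 and 13.02 at high. All mid and high arrays lay above every control, while the low arrays overlapped the upper controls, the highest of which, at 12.37, stood apart from the next at 11.75. The log2 fold change of cox6a1 was 0.38 ± 0.19 (SE) at low, 1.39 at mid and 1.57 at high, the last a 2.97-fold rise (adjusted p = 7.8e-08).

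The subunit cox7a2a was read by 2 probes that gave nearly the same change. Probe A_15_P107936 of cox7a2a ranged from 13.29 to 13.63 in the controls (median 13.52) and read 13.49, 13.59, 13.86 and 14.04 at low, 13.85, 13.99, 14.01 and 14.3 at mid, and 14.38, 14.5, 14.52 and 14.63 at high. Its high arrays were above every other array, those at mid included. The rise was 1.03 ± 0.11 at high for this probe and 0.96 ± 0.09 for the second probe of cox7a2a, A_15_P191571, with adjusted p of 1.8e-08 and 3.3e-09. Both cox7a2a probes were higher at high than at mid, each by 0.47 with no overlap of arrays (adjusted p = 0.018 and 0.0058), short of the 1.8-fold threshold.

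The exception in complex IV was cox5b2, a zebrafish form of the zinc-binding subunit, which fell. The controls of cox5b2 lay between 13.86 and 14.23 (median 14.02). The low arrays read 13.15, 13.73, 13.86 and 13.9, the mid arrays 11.39, 12.58, 12.64 and 12.88, and the high arrays 11.69, 12.74, 12.94 and 13.04. Mid and high arrays lay below every control, and in each exposed group 1 array was well below the other 3, which was replicate 3 each time. cox5b2 fell by 1.66 ± 0.24 on the log2 scale at mid (3.15-fold, adjusted p = 1.3e-06) and by 1.43 ± 0.24 at high (2.69-fold, adjusted p = 6.9e-06). Without high replicate 3 the change of cox5b2 at high was -1.13, and without mid replicate 3 the change at mid was -1.33, both still called. Its paralog cox5ba was not in the table. On the fed arrays of the second experiment, scaled separately, the probe of cox5b2 was bright, at 16.27 to 16.42. By the methods, DDVP readings off scale at the higher scan power were replaced by readings at the lower power. Whether such replacement affected the values of cox5b2 was not tested.

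The other complex IV subunits in the table were higher at high by less than 1.8-fold. The change was 0.70 ± 0.09 for cox5aa, 0.64 ± 0.13 for cox6b1 and 0.62 ± 0.11 for cox7c. In each of these genes the 4 high arrays lay above all 8 controls, and each passed the adjusted p threshold (3.3e-07, 8.4e-05 and 1.2e-05). The probe of cox6b1 was highest at mid, at 0.80 ± 0.13, which is just under the fold threshold. On the fed arrays of the second experiment cox5aa read 15.04 to 15.64 and cox7c 15.12 to 15.31. Replacement of off-scale DDVP readings was not tested for these genes either.

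**Figure D2:**
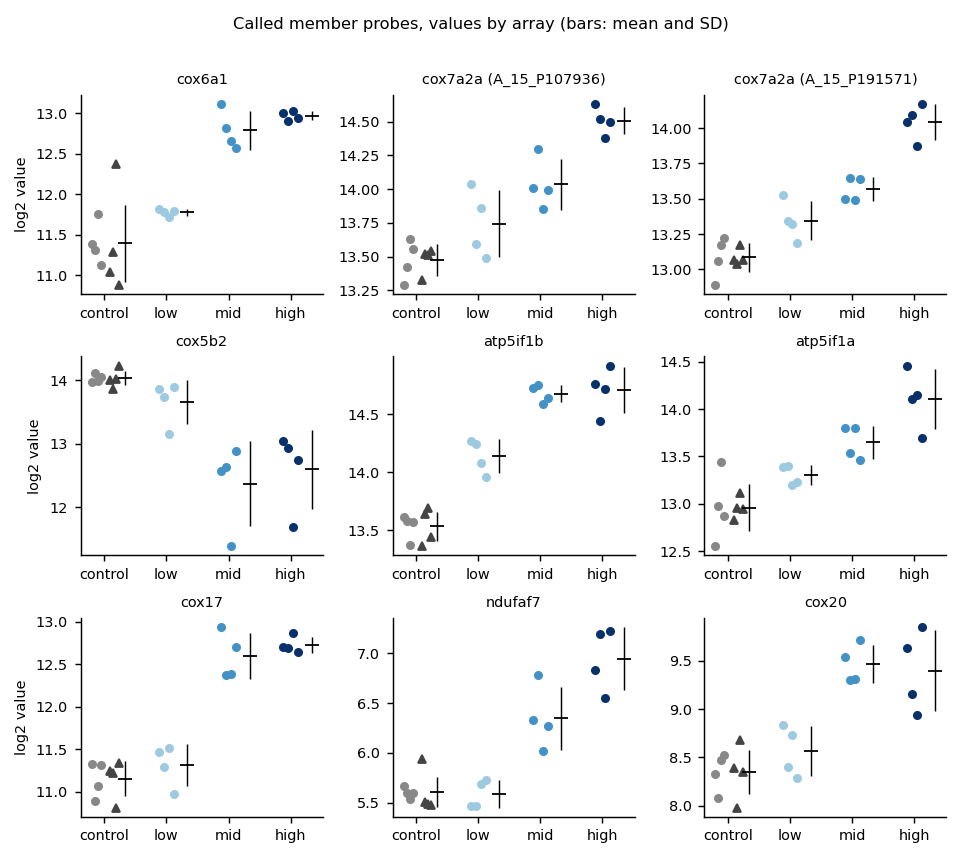
Log2 values by array of the 9 member probes called at the high concentration, with circles for control set 1, triangles for control set 2, blue points for the exposed arrays and bars for the mean and SD of each group. In 8 panels the high arrays lie above all controls, and in the cox5b2 panel they lie below, from 11.69 to 13.04 against 13.86 to 14.23.

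Among factors that assemble complex IV, cox17, the copper chaperone that supplies the enzyme's copper centres, showed the largest rise. cox17 ranged from 10.81 to 11.34 in the controls (median 11.23) and read 10.97, 11.29, 11.47 and 11.51 at low, 12.37, 12.39, 12.7 and 12.94 at mid, and 12.65, 12.69, 12.7 and 12.87 at high. The low arrays overlapped the controls, whereas all mid and high arrays stood above both. The change of cox17 was 0.16 ± 0.13 at low, 1.45 at mid and 1.58 ± 0.13 at high (2.99-fold, adjusted p = 3.3e-10).

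The probe of cox20, a chaperone of the mitochondrially encoded subunit 2, followed the same course with a wider spread. The controls of cox20 ran from 7.98 to 8.68 (median 8.37), the low arrays read 8.29, 8.4, 8.73 and 8.84, the mid arrays 9.3, 9.31, 9.54 and 9.71, and the high arrays 8.94, 9.16, 9.63 and 9.85. cox20 rose by 1.12 at mid and 1.04 ± 0.16 at high (adjusted p = 3.1e-06). The copper-insertion factor cox11 was at -0.37 at low, 0.09 at mid and 0.53 ± 0.12 at high. The high arrays of cox11, from 9.39 to 9.65, overlapped the highest control at 9.47.

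Both complex I assembly factors in the table are methyltransferases that modify subunits of the complex, and they moved apart. ndufaf7 ranged from 5.48 to 5.94 in the controls (median 5.57) and read 5.47, 5.47, 5.69 and 5.73 at low, 6.02, 6.27, 6.33 and 6.78 at mid, and 6.55, 6.83, 7.19 and 7.22 at high. It was level with the controls at low and above all of them at mid and high. The change of ndufaf7 was 0.74 ± 0.14 at mid and 1.34 ± 0.14 at high (adjusted p = 8.4e-09). This probe of ndufaf7 was dim and did not pass the signal to noise filter of the nutrient restriction arrays, and a second probe of the gene, A_15_P153761, was not in the table. ndufaf5 lay 0.69 ± 0.13 lower at high (1.61-fold, adjusted p = 4.2e-05), with every high array, from 8.88 to 9.6, below the lowest control at 9.78.

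No complex I subunit reached 1.8-fold, and 4 of the 6 probes passed the adjusted p threshold at high. The largest changes were those of ndufs1, the large iron-sulfur subunit of the electron entry module, at -0.76 ± 0.12 (adjusted p = 3.5e-06), and ndufc2, a small subunit of the membrane arm, at -0.75 ± 0.13 (adjusted p = 7.9e-06). ndufs1 ranged from 10.17 to 10.65 in the controls and read 10, 10.03, 10.09 and 10.17 at low, 9.54, 9.62, 9.88 and 10.13 at mid, and 9.51, 9.64, 9.66 and 9.7 at high. Its mid and high arrays lay below all controls. ndufc2 ranged from 14.24 to 14.53 in the controls and read 13.62, 13.77, 14.27 and 14.36 at low, 13.83, 13.93, 14.0 and 14.03 at mid, and 13.5, 13.5, 13.81 and 13.83 at high. Again the mid and high arrays of ndufc2 were below every control and the low arrays were split. ndufb10, another subunit of the membrane arm, was at -0.72 ± 0.13 (adjusted p = 1.5e-05). Second probes of ndufs1 (A_15_P110609) and ndufb10 (A_15_P110022) were not in the table, so the falls of these genes rest on single probes.

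In contrast, ndufa6 of the matrix arm was higher at every concentration, at 0.33, 0.39 and 0.47 ± 0.09 (adjusted p = 3e-05 at high), with no overlap between exposed and control arrays. The 2 probes of ndufa5, a neighbouring subunit of the matrix arm, had their largest mean difference from the controls at the low concentration. They were at -0.58 and -0.44 at low against -0.35 and -0.37 at high, where ndufa5 was the only member gene that missed the adjusted p threshold (adjusted p = 0.0064 and 0.0028). At low, all 4 arrays of either ndufa5 probe were below all 8 controls.

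Complex III was represented by uqcrc2b, a core subunit, and uqcrh, the hinge subunit that binds cytochrome c1. Both were at 0.50 ± 0.09 at high, with adjusted p of 1.6e-05 and 1.2e-05. All high arrays of uqcrc2b, from 13.89 to 14.28, were above the controls, from 13.44 to 13.65. At low the change of uqcrc2b was -0.03 ± 0.09 and that of uqcrh 0.17 ± 0.09.

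Of the 16 complex V probes only probe A_15_P601652 of atp5f1c and the probe of atp5pd had DDVP values, and neither was called. A second probe of atp5f1c, A_15_P100302, was not in the table. atp5f1c, the central stalk that turns within the catalytic head, ranged from 12.91 to 13.34 in the controls and read 12.08, 12.51, 12.58 and 12.71 at low, 12.69, 12.69, 12.7 and 12.79 at mid, and 12.22, 12.46, 12.49 and 12.49 at high. All 12 exposed arrays of atp5f1c were below all controls, and the change was already -0.70 ± 0.12 at low (adjusted p = 2.3e-05), -0.45 at mid and -0.75 ± 0.12 at high (adjusted p = 2.9e-06). atp5pd, part of the peripheral stalk, was at -0.47, -0.71 and -0.50 ± 0.12, and its high arrays overlapped the lowest control.

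The inhibitor atp5if1b ranged from 13.36 to 13.69 in the controls (median 13.58) and read 13.96, 14.08, 14.24 and 14.27 at low, 14.59, 14.64, 14.73 and 14.75 at mid, and 14.44, 14.72, 14.76 and 14.92 at high. Exposed and control arrays of atp5if1b did not overlap at any concentration. Its change was 0.60 ± 0.10 at low (adjusted p = 2.8e-05), 1.15 at mid and 1.18 ± 0.10 at high (2.26-fold, adjusted p = 5.5e-10). The paralog atp5if1a ranged from 12.55 to 13.44 in the controls (median 12.95) and read 13.2, 13.23, 13.39 and 13.4 at low, 13.46, 13.54, 13.8 and 13.8 at mid, and 13.69, 14.11, 14.15 and 14.46 at high. Here the low arrays overlapped the controls and those at mid and high did not. The change of atp5if1a was 0.35 at low, 0.69 at mid and 1.14 ± 0.14 at high (2.20-fold, adjusted p = 1.3e-07).

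The probe just inside the fold threshold at high was the second of cox7a2a, at 1.94-fold, and those just outside were ndufs1 at 1.69-fold with ndufc2 and atp5f1c both at 1.68-fold. All 9 calls at high stood when either control set was used alone and when any single array was left out. As the means of the control sets are equal, using either alone could change the spread but not the fold change.

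Between neighbouring concentrations, the step from low to mid called 4 member probes (25.8% of the table, 12.6% higher and 13.2% lower), higher for cox17 (1.29 ± 0.15), cox6a1 (1.01 ± 0.22) and cox20 (0.90 ± 0.19) and lower for cox5b2 (-1.29 ± 0.27). In the step from mid to high none was called (1.37% of the table), likewise without variance moderation, and 8 of 24 had an unadjusted p under 0.05 (31.9% of the table). The labels do not say which control set belongs to which concentration. If low and mid were each scaled to a different control set, the standard errors of the step from low to mid are too small as well. The count for low to mid was not stable. It was 1 with control set 2 alone, 1 without low replicate 2 or without low replicate 4, and 2 without low replicate 1 or without mid replicate 1, and cox17 kept its call in each of these.

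Genes of the pathway outside the symbol rule were taken from fixed lists. Of 8 genes of complex II and its assembly, 5 had probes and 3 were in the table, all of them subunits of succinate dehydrogenase, the enzyme that feeds electrons from succinate into the chain. All 5 of their probes were called as higher at high, where 39.4% of the table was called as higher and 35.1% as lower. sdhc rose by 1.44 and 1.56 on its 2 probes, sdha by 0.98 on both of its probes in the table and sdhb by 0.86 ± 0.14; the call of sdhb, close to the threshold, was lost without control set 1 replicate 1, control set 2 replicate 1, high replicate 1 or high replicate 3. Cytochrome c and the complex III genes that carry other symbols gave 5 genes in the table, all 5 called as higher (39.4% of the table). These were hccsb, which attaches haem to cytochrome c, at 2.12 ± 0.14, lyrm7, an assembly factor of the iron-sulfur protein, at 1.20 ± 0.19, uqcc1, an assembly factor of cytochrome b, at 1.12 ± 0.14, cycsb, a cytochrome c, at 0.95 ± 0.14, and cyc1, cytochrome c1, at 0.91 ± 0.12.

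Assembly factors and electron carriers with other names were mixed. Of 36 such genes 28 had probes, and 14 probes of 12 genes were in the table, of which 3 were called as higher and 5 as lower at high (39.4% and 35.1% of the table). The enzymes of ubiquinone synthesis divided, with coq5 at 1.55 ± 0.14 and pdss1 at 1.16 ± 0.16 against coq3 at -1.38 ± 0.15 and coq2 at -1.01 ± 0.12. etfdh, which passes electrons from fatty acid oxidation to ubiquinone, fell by 1.82 ± 0.13. acad9, a complex I assembly factor related to acyl-CoA dehydrogenases, was at -2.40, -1.34 and -0.84 on its 3 probes, of which the last missed the threshold by fold. atpaf1, which helps to assemble the catalytic head of ATP synthase, rose by 1.25 ± 0.12. Of 14 regulators of mitochondrial transcription, only tfb2m was in the table, at 0.66 at low, 1.44 at mid and 1.96 ± 0.14 at high. None of the 13 protein genes encoded in mitochondrial DNA had a matched probe.

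Markers of hepatocytes in the table, 4 probes of fgb, fgg and cp, were also lower at high, with a median log2 change of -1.08. Of these 4 probes, 3 were called as lower, against 35.1% of the table. Only 3 of the 12 listed hepatocyte genes were in the table. Markers of pancreas, erythrocytes, muscle, macrophages and female liver had no probe in the table, so the cell composition of the DDVP samples was not checked, and its part in the changes above was not tested.

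The nutrient restriction arrays addressed whether going without food, with no DDVP, changes these transcripts. By the methods, the fed fish had last received food a few hours before harvest. Of the 89 member probes, 85 of 70 genes passed the filter on signal to noise, and those of cox19, ndufa12 and ndufs8b and the dim probe of ndufaf7 did not. No member was called at an adjusted p of at most 0.001 in any of the 3 comparisons (limma over 16082 probes), where the share of all probes called was 0.00622% for 24 h against fed, 0.0187% for 50 h against fed and 0.0% for 50 h against 24 h. None was called without variance moderation either. In simulated data with the spread of these arrays, 64 of 200 probes given a log2 change of 1 passed this threshold, and 169 of 200 given a change of 2. Most changes of 2-fold or less would therefore be missed. An unadjusted p under 0.05 was found for 13, 9 and 2 of the 85 members, against 23.2%, 24.1% and 6.27% of all probes. At an adjusted p of at most 0.05 there were 3 members at 24 h (5.75% of all probes, 3.6% lower) and 2 at 50 h (6.0% of all probes, 2.8% lower), all of them lower.

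Most members were nevertheless slightly below the fed group after the shorter fast. At 24 h, 78 of 85 member probes were below the fed group, against 53.5% of all probes, with a median log2 change of -0.16 against -0.02 over all probes. At 50 h the count was 62 of 85, against 58.9% of all probes, with a median of -0.08 against -0.06. The arrays of the 24 h group lay wholly below the fed arrays in 11 member probes and above in none (9.79% and 5.12% of all probes). Most members were bright. When all probes were split into 4 equal classes by mean signal, 74 of the 85 members fell into the brightest class, of which 51.6% of all probes were lower at 24 h with a median of -0.01 and 68 of the 74 members with a median of -0.15.

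The difference was not the same on every slide. Within the 3 slides, each of which held all 3 groups, the median change of the members at 24 h was -0.24, -0.17 and 0.02, with 75, 64 and 41 of 85 below the fed arrays. At 50 h it was -0.18, 0.02 and -0.04. With the slide as a block the median was -0.13 at 24 h. When each array was left out in turn, 69 to 79 members stayed below fed at 24 h and 55 to 67 at 50 h. The median at 50 h was -0.03 without fed replicate 2 and -0.13 without 50 h replicate 2, and it lay between these values otherwise. Scaling to the 75th percentile of the processed signal put 81 members below fed at 24 h and 79 at 50 h, with medians of -0.31 and -0.25, and moved the median of all probes to -0.10 and -0.14 with 61.5% and 66.3% of them lower.

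By complex, all 16 complex V probes were below fed at 24 h (median -0.22), all 7 of complex III (median -0.14), 34 of 36 of complex I (median -0.14), 8 of 9 of assembly factors (median -0.23) and all 3 of the NDUFA4 family. Complex IV was more divided, with 9 of 12 lower and a median of -0.11. The probes above fed in complex IV were cox4i2 at 0.36 ± 0.27, cox5ba at 0.28 ± 0.19 and cox5aa at 0.03 ± 0.17, none with an adjusted p under 0.41. The inhibitor atp5if1a was at 0.13 ± 0.19 at 24 h and 0.37 ± 0.19 at 50 h, and atp5if1b at -0.20 ± 0.13 and 0.03 ± 0.13, with adjusted p of 0.25 or more.

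**Figure D3:**
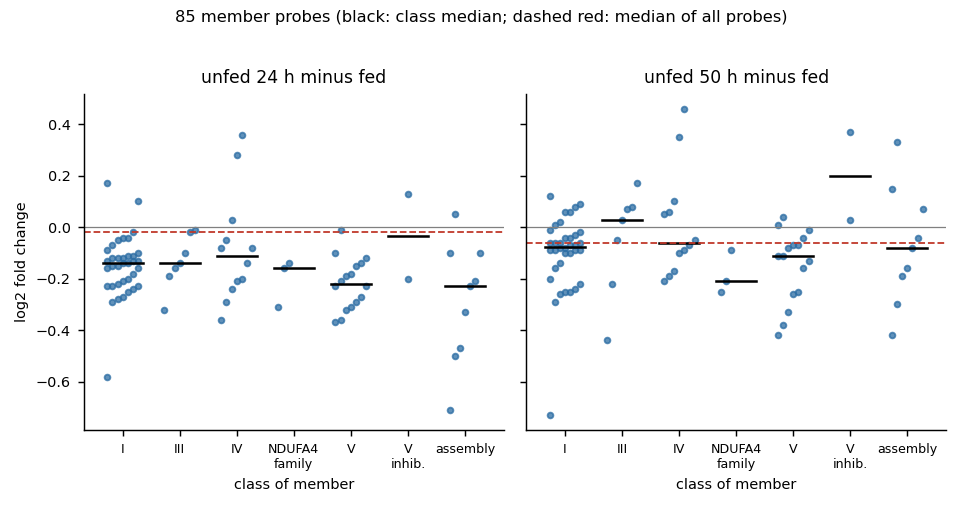
Log2 fold change of the 85 member probes that passed the filter, for 24 h (left) and 50 h (right) without food against fed fish, by class, with a black line at the median of each class and a dashed red line at the median of all probes. At 24 h nearly all points lie below 0, with 78 of 85 lower, and at 50 h they lie closer to the line of all probes, with 62 of 85 lower.

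ndufc2 of complex I had the lowest adjusted p of the members in the 50 h comparison. Its log2 signal was 14.87, 15, 14.64 and 14.53 on the fed arrays, 14.1, 14.31, 14.11 and 14.2 at 24 h and 14.03, 14.09, 13.99 and 14.0 at 50 h. Every unfed array of ndufc2 was below every fed array. The change was -0.58 ± 0.11 at 24 h (adjusted p = 0.016) and -0.73 ± 0.11 at 50 h (adjusted p = 0.0066), and on the 3 slides it was -0.67, -0.71 and -0.33 at 24 h. With the slide as a block, the adjusted p of ndufc2 was 0.034 at 24 h and 0.021 at 50 h.

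cox11 read 9.88, 9.91, 9.86 and 9.8 on the fed arrays, 9.35, 9.43, 9.26 and 9.54 at 24 h and 9.41, 9.48, 9.43 and 9.45 at 50 h, again without overlap. It was lower by a log2 change of -0.47 ± 0.09 at 24 h (adjusted p = 0.014) and -0.42 ± 0.09 at 50 h (adjusted p = 0.021). Within the slides cox11 was at -0.49, -0.62 and -0.26 at 24 h, and the adjusted p with the slide as a block was 0.035 at 24 h and 0.043 at 50 h. The adjusted p of cox11 at 50 h was above 0.05 without fed replicate 1 (adjusted p = 0.051), fed replicate 2 (0.061), fed replicate 3 (0.061) or 50 h replicate 3 (0.052). ndufaf1, a factor of complex I assembly, read 12.64, 12.65, 12.78 and 12.49 on the fed arrays and 12.04, 12.25, 12.08 and 12.2 at 24 h, at -0.50 ± 0.12 (adjusted p = 0.04). The value of ndufaf1 missed an adjusted p of 0.05 with the slide as a block (0.068), with the replicate block (0.056), with no filter on dim probes (0.059), without any 1 of the 24 h arrays (0.06 to 0.11), without fed replicate 1, 2 or 3 (0.079 to 0.11) and without 50 h replicate 4 (0.051). At 50 h ndufaf1 read 12.21, 12.68, 12.18 and 12.3, which overlapped the fed arrays.

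Both probes of atp5f1c were lower in the unfed groups without overlap, though short of an adjusted p of 0.05. Probe A_15_P100302 of atp5f1c read 15.42, 15.57, 15.37 and 15.36 on the fed arrays, 14.88, 15.05, 15.01 and 15.3 at 24 h and 15.08, 15.31, 15.05 and 14.94 at 50 h. Its change was -0.37 ± 0.12 at 24 h and -0.33 ± 0.12 at 50 h (adjusted p = 0.082 and 0.11), and that of the second atp5f1c probe was -0.36 ± 0.12 and -0.42 ± 0.12 (adjusted p = 0.092 and 0.06). Over 15 genes with more than 1 probe, the median gap between probes of a gene was 0.06 at 24 h and 0.08 at 50 h. The largest gap was 0.09 at 24 h and 0.23 at 50 h. For comparison, the median size of change over all members was 0.16 at 24 h and 0.09 at 50 h.

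cox20 had a wide spread in the 24 h group. It read 8.94, 8.94, 8.77 and 8.99 on the fed arrays, 8.11, 9.04, 7.97 and 7.68 at 24 h and 9.2, 9.22, 8.98 and 8.83 at 50 h. Of the 24 h arrays 3 lay below all others and 1 among them. The change of cox20 was -0.71 ± 0.23 at 24 h (adjusted p = 0.093) and 0.15 ± 0.23 at 50 h. Between 50 h and 24 h it differed by 0.86 with an adjusted p of 0.78, and over all members 67 of 85 were higher at 50 h than at 24 h (48.8% of all probes) with a median of 0.07. That median was 0.07, 0.18 and -0.07 within the 3 slides, with 55 of 85 lower on the last, and 0.02 without 24 h replicate 1 or without 50 h replicate 2.

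**Figure D4:**
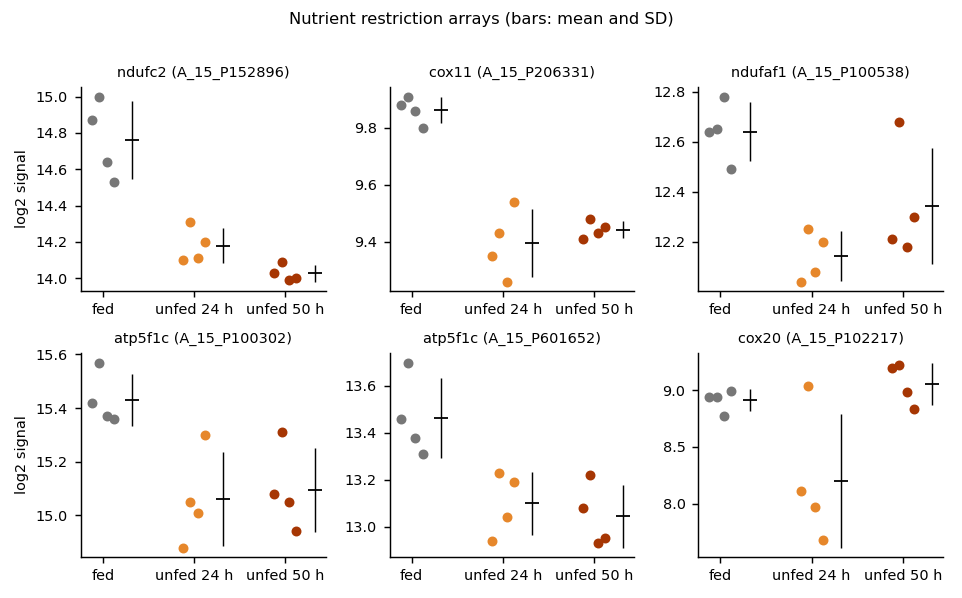
Log2 signal by array of ndufc2, cox11, ndufaf1, both probes of atp5f1c and cox20 in fed fish and after 24 h and 50 h without food, with bars for the mean and SD of the 4 arrays. All unfed arrays of ndufc2 (13.99 to 14.31) and cox11 (9.26 to 9.54) lie below the fed arrays, whereas cox20 is low in 3 of the 24 h arrays alone.

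Outside the symbol rule, none of the 11 complex II probes had an adjusted p of at most 0.05 (median -0.10 at 24 h). bcs1l, which places the iron-sulfur protein into complex III, was lower, at -1.20 ± 0.14 at 24 h (adjusted p = 0.0024) and -0.95 ± 0.14 at 50 h (adjusted p = 0.0052), the only gene of its list at an adjusted p under 0.05 at both times. hccsb and lyrm7 were lower at 24 h, at -0.55 ± 0.13 and -0.80 ± 0.19 (adjusted p = 0.031 and 0.032). Of the assembly factors and carriers, 6 of 36 probes at 24 h and 8 at 50 h had an adjusted p of at most 0.05, all lower. Over all probes, 3.6% at 24 h and 2.8% at 50 h were lower at this threshold. Among the genes that passed were pdss2 at -0.98 and -0.77, coq3 at -0.55 and -0.50, atpaf2 at -0.49 and -0.44 and foxred1 at -0.85 and -0.76 on probe A_15_P492357. coq5 and atpaf1 were at -0.37 and -0.39 at 24 h. All 3 probes of acad9 were lower at 50 h, at -0.98, -0.84 and -0.61. No regulator of mitochondrial transcription had an adjusted p of at most 0.05.

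Markers of exocrine pancreas, which zebrafish carry close to or within the liver, varied widely between arrays. All 13 of their probes were lower in both unfed groups, from -1.55 to -0.93 at 24 h, none with an adjusted p of at most 0.05, and the log2 of their summed signal ran from 18.5 to 19.7 on the fed arrays, from 16.8 to 18.5 at 24 h and from 16.8 to 19.8 at 50 h. The summed signal of macrophage markers ran from 12.3 to 13.4 in fed fish, from 13.4 to 14.2 at 24 h and from 13.6 to 14.1 at 50 h; csf1ra was not well above background on any fed array. mpeg1.1, a macrophage gene, was higher by 0.93 ± 0.26 at 24 h (adjusted p = 0.055) and 1.16 ± 0.26 at 50 h (adjusted p = 0.024). Of the female liver markers, the yolk protein gene vtg5 was at -1.0 ± 0.46 and -1.12 ± 0.46 (adjusted p = 0.21 and 0.16), vtg2 was not well above background on any array, and the summed signal reached at most 12.1 in fed fish, 10.9 at 24 h and 11.5 at 50 h. The summed signal of hepatocyte markers was level, at 20.3 to 20.5 over all arrays. Of their 9 probes, 7 were higher and 2 lower at 24 h, from -0.62 to 0.3, none with an adjusted p of at most 0.05. The lowest, apoa1b, had a wide spread (-0.62 ± 0.78). Erythrocyte markers ran from 12.7 to 14.9 on the fed arrays, from 13.4 to 14.9 at 24 h and from 13.2 to 14.4 at 50 h. Muscle markers reached 13.7 on 1 array at 50 h against at most 11.8 on fed arrays, and acta1a was not well above background on any array. The part of these cell types in the member values was not tested.

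Set side by side, 9 of the 23 member probes with values in both experiments were lower both at high DDVP and at 50 h without food, 8 were higher at high DDVP and lower at 50 h, and 6 were higher in both. The experiments were scaled separately and each value is against its own control group. These probes were all in the deposited table, whose selection is inferred to have used the DDVP arrays. Larger changes with DDVP therefore carry no weight of their own. The counts by sign were not taken over all probes. At high DDVP, 44.0% of all probes in the deposited table were lower. At 50 h, 58.9% of all probes that passed the filter were lower. Some 50 h changes, such as those of cox5b2 and cox6a1 below, were smaller than their standard errors. The counts by sign therefore carry no weight of their own either. ndufc2 was at -0.75 ± 0.13 and -0.73 ± 0.11, and the atp5f1c probe in the table at -0.75 ± 0.12 and -0.42 ± 0.12. cox5b2, at -1.43 ± 0.24 with high DDVP, was at -0.10 ± 0.11 at 50 h, and cox6a1, at 1.57 ± 0.19, was at -0.19 ± 0.32. cox17 was at 1.58 ± 0.13 and 0.33 ± 0.16. cox11 was at 0.53 ± 0.12 and -0.42 ± 0.09. The difference between these paired values was not tested.

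**Figure D5:**
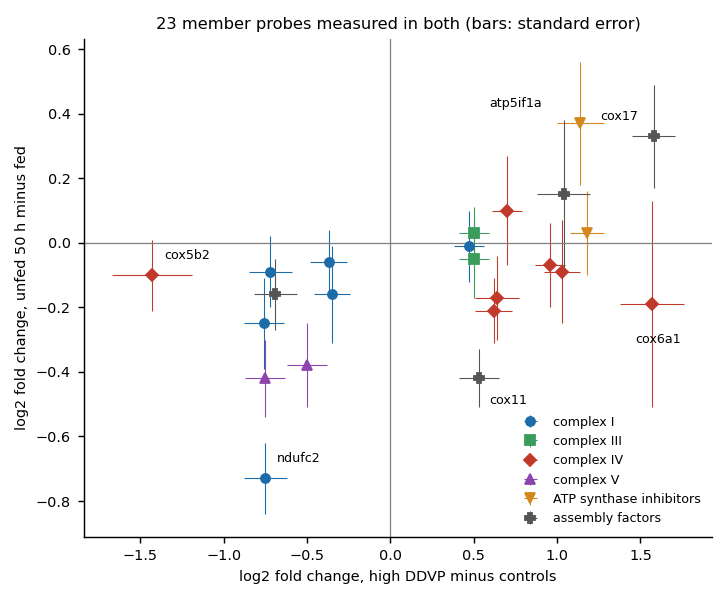
Change of the 23 member probes measured in both experiments, with the log2 fold change at high DDVP against its controls on the horizontal axis and that at 50 h without food against fed fish on the vertical axis; bars are standard errors and symbols mark the complex. The vertical spread, from -0.73 for ndufc2 to 0.37 for atp5if1a, is smaller than the horizontal one, from -1.43 for cox5b2 to 1.58 for cox17. All points are probes of the deposited table, by inference selected with the DDVP arrays, so the larger horizontal spread carries no weight of its own.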

How the data were processed

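Single-colour Agilent zebrafish arrays were used. According to the methods, the authors quantile normalized the median spot signal in Partek software and took log2. The deposited log2 table holds a selection of probes whose number matches that of a joint comparison in the study, for which removal of a batch effect before plotting is described; that the deposited values carry this removal is inferred from the equal group means given above. On the 12 nutrient restriction arrays these values follow the quantile normalized processed signal, up to a constant per probe, more closely (SD 0.00294) than the median signal (0.103). The deposited scanner files of those arrays hold intensity per spot from Agilent Feature Extraction (version 10.7.1.1 by their headers). Median spot signals were 46 to 59 over a background of 38 to 52, with 48.9 to 56.7% of spots well above background; the number of arrays limits the precision.

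The deposited table served for DDVP, with limma 3.58.1 (R 4.3.3) fitted to each of its probes and p-values adjusted by Benjamini-Hochberg over all of them. For nutrient restriction the median signal was quantile normalized and taken to log2, outlier spots were left out, spots of a probe were averaged, and 16082 probes were kept whose signal exceeded noise by a factor of 3 or more throughout some group. No member probe was saturated on the nutrient restriction arrays. According to the methods, the DDVP arrays were read on another scanner, at a lower and a higher power. Probes off scale at the higher power took their values from the lower. Saturation on the DDVP arrays was not checked here. Scripts were tested on simulated data. Probes were named through RefSeq accessions and an annotation table of assembly GRCz12tu, used for names only (15163 of 19212 accession-bearing probes matched).

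Arrays were grouped by GEO's labels. The rule for values by array took, in each complex, up to 2 rises and 2 falls at high among called probes without overlap, together with any member called in a fast, of which there was none; the other members given by array, in the fasts those with an adjusted p of at most 0.05 besides atp5f1c and cox20, were added after their values were seen. Members and gene lists (complex II, cytochrome c and complex III, assembly and carriers, regulators, mitochondrially encoded genes, and cell markers) were chosen with earlier results of these data known. Alternatives covered the control set, scaling, filters, thresholds, background correction, slide, pairing and each array left out. Tables and plots were made in python 3.11.15 (pandas 2.3.3, numpy 2.4.6, matplotlib 3.10.9).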

Additional observations from a re-analysis of the deposited data

Results flagged for a closer look

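Of 105 groups of values examined, 5 held an array whose distance to its nearest neighbour was large for the group's range, about what chance gives at 1 in 20. ndufaf7 stood at 5.94 on control set 2 replicate 1, with the other controls from 5.48 to 5.67. uqcrh stood at 13.79 on control set 1 replicate 4 (others 13.5 to 13.62). cox5aa stood at 14.28 on high replicate 2 (others 14.07 to 14.1). atp5f1c stood at 12.79 on mid replicate 3 (others 12.69 to 12.7) and at 12.22 on high replicate 2 (others 12.46 to 12.49).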

How the results depend on the processing

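The number of members called kept within 1.5 times its value for most settings. Without a fold filter it was 3 at low, 17 at mid, 22 at high and 7 for low to mid. The step from low to mid gave 1 with control set 2 alone, 2 with arrays centred on their median and 2 without variance moderation, and 1 to 4 when each array was left out. At an adjusted p of 0.05 the nutrient restriction counts were 3 at 24 h and 2 at 50 h. Scaling by the 75th percentile of the processed signal moved the median change of the members to -0.31 at 24 h and -0.25 at 50 h. Near 0, ndufaf7 at low turned to 0.03 with arrays centred or without control set 2 replicate 1 and to 0.02 without low replicate 1 or 2 (-0.06 to 0.03 with each array left out), and uqcrc2b at low turned to 0.01 with arrays centred. With the replicate block 0, 5 and 9 members were called at low, mid and high, 4 for low to mid, and 0 elsewhere; same-numbered arrays did not deviate together (correlations -0.284 to 0.328 for DDVP and -0.296 to 0.373 for nutrient restriction; 8 of 20 and 3 of 12 arrays correlated best with their own number), so the numbers were not taken to pair samples. The planned background correction by normexp on the mean signal was not run, as the scanner files used here carry the median signal; on that signal, an alternative chosen after seeing the data, no member was called. Weak probes such as that of ndufaf7 limit what the arrays resolve.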
